A study of Mus musculus with 28 samples.

Results

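Basement membranes are thin sheets of extracellular matrix that lie under epithelium and endothelium and around muscle cells. Laminins are trimers of 1 alpha, 1 beta and 1 gamma chain that assemble into the first network of the sheet, type IV collagen forms another, nidogens bind laminin to collagen, and the heparan sulfate proteoglycans perlecan and agrin tie the networks together and hold growth factors. In the lung the basement membranes of alveolar epithelium and capillaries fuse where gas is exchanged, and the laminin chains in them come from epithelial, endothelial and mesenchymal cells.

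The expression of 10 genes of this structure is described here, out of 22180 genes measured. They are Hspg2 (perlecan), Agrn (agrin), Lama3, Lama4, Lama5, Lamb1, Lamb2 and Lamc1 (laminin alpha, beta and gamma chains), and Nid1 and Nid2 (nidogens). Each gene was represented by the brightest probe set that carried its single symbol in the platform annotation, and all 10 had such a row. The 10 were chosen with the levels of Hspg2 in these arrays known, namely that it was lower with N-acetyl cysteine (NAC, a thiol antioxidant) in every genotype. Differences between NAC and untreated lungs are therefore given as descriptions without a test, and tests are given for the genotype comparisons, which the choice did not use.

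The lungs came from mice collected on postnatal day 0, and each of the 28 arrays held total RNA of the whole lungs of 1 animal. The untreated groups were Control (3 arrays), HRas-KO (3, HRAS-deficient), NRas-KO (3, NRAS-deficient) and DKO (5, deficient for both HRAS and NRAS). The same genotypes were measured after NAC given antenatally, as Control+NAC (4), DKO+NAC (4), HRas-KO+NAC (3) and NRas-KO+NAC (3). The labels give 0.5% NAC to the pregnant females, so n counts newborns and not mothers, and littermates would not be independent. The strain, the alleles and the age beyond day 0 are not given in the sources used here.

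Several facts of the labels and arrays bear on every comparison. The treatment note names NAC for only 3 samples, whereas the sample labels place 14 arrays in NAC groups, and the sample labels were followed; for HRas-KO+NAC only the source label names NAC. Sample titles carry an animal code, and its start (C118, H058, T195 and so on) may mark a litter or collection, which the labels do not state. No code start occurred in both arms, and none of the untreated DKO arrays shared one with another group, so NAC and code start, and untreated DKO and code start, cannot be told apart. Sftpc, the surfactant protein of alveolar type 2 cells, had group means of 13.07 to 13.14 on the log2 scale, and Nras was 7.40 to 7.80 in NRas-KO and DKO arrays of both arms except the array labelled DKO+NAC 4, at 8.08, against 8.07 to 8.47 in the other groups. Xist, which is transcribed from the inactive X chromosome, was above 9.92 or below 4.60 on every array: it was high on 4 of 4 DKO+NAC arrays and on 0 of 3 HRas-KO+NAC arrays, so in those groups genotype and Xist level cannot be told apart. All levels below are log2 values, 1 unit being a doubling, and levels of different genes are not compared because each probe set has its own brightness.

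Perlecan, the large proteoglycan encoded by Hspg2, had the largest difference between the arms among the 10 genes. In untreated lungs the Hspg2 level was 9.76, 10.31 and 9.77 in Control, 10.12, 9.66 and 10.19 in HRas-KO, and 9.79, 9.80 and 9.63 in NRas-KO. The DKO arrays read 9.66, 9.38, 9.39, 10.03 and 9.70. With NAC it was 8.30, 8.55, 7.9998 and 8.33 in Control+NAC, 8.35, 8.64 and 8.10 in HRas-KO+NAC, 7.74, 8.08 and 8.45 in NRas-KO+NAC, and 8.03, 8.32, 8.09 and 8.19 in DKO+NAC. Every NAC array lay below every untreated array, with a gap of 0.74 between the lowest untreated and the highest NAC value.

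The group means of Hspg2 were 9.95 ± 0.31 (SD, n = 3) in Control and 8.29 ± 0.22 (n = 4) in Control+NAC, a difference of -1.66. The corresponding differences were -1.63 in HRas-KO, -1.47 in DKO and -1.65 in NRas-KO. Hspg2 RNA with NAC thus stood at 31.7%, 32.3%, 31.9% and 36.1% of its untreated level in Control, HRas-KO, NRas-KO and DKO. Ranked from the lowest difference over 22180 genes, Hspg2 was in place 3, 6, 8 and 9 in these genotypes, in that order. Averaged over the 4 genotypes, its difference was -1.60, and 1 gene had a lower average. In whole lungs, fewer cells of a type and less RNA per cell cannot be told apart.

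**Figure D1:**
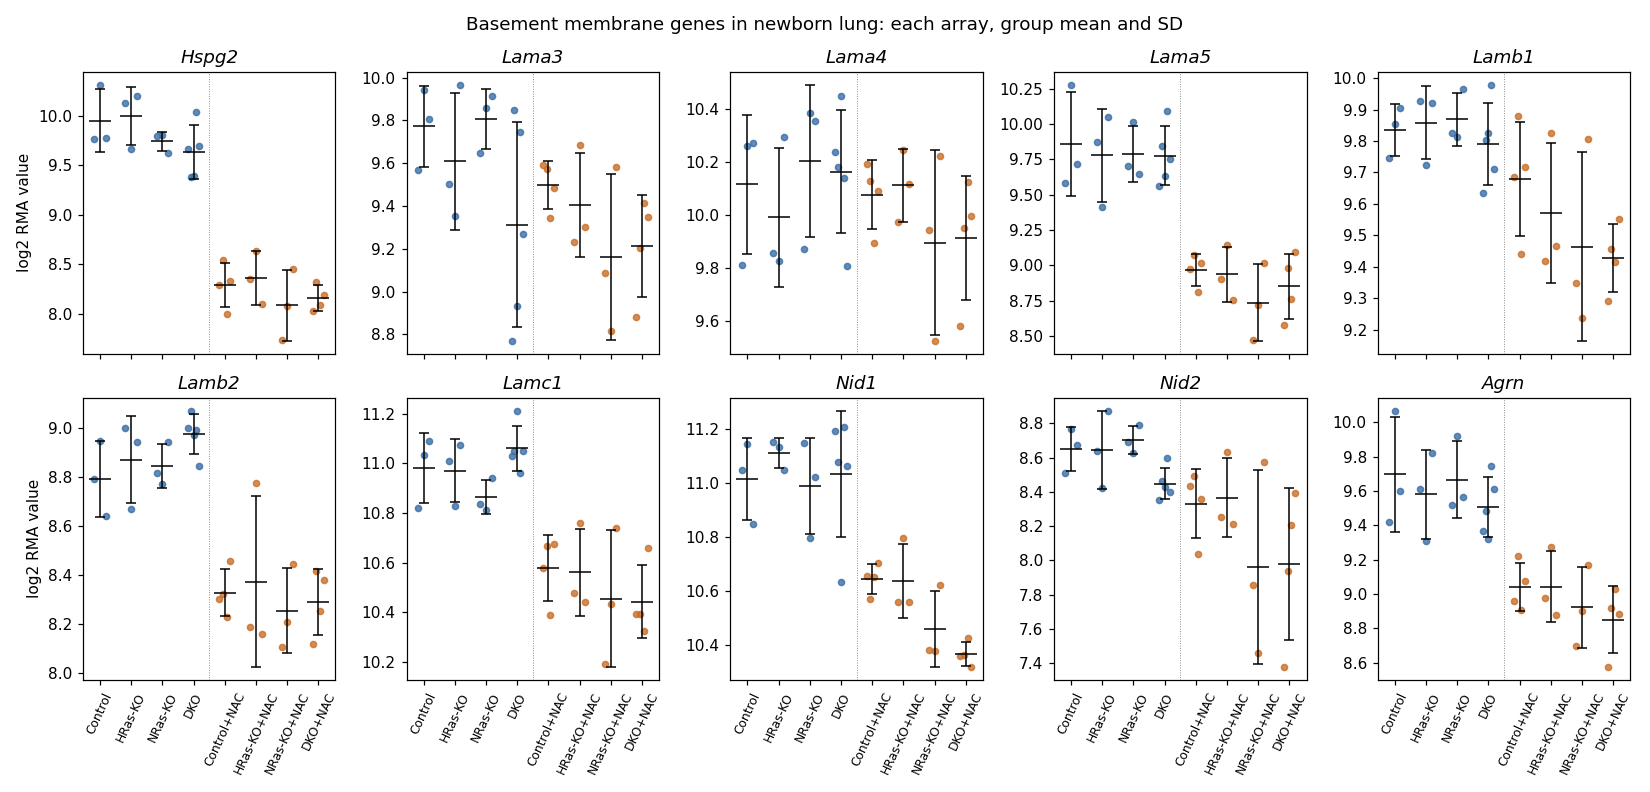
Log2 level (y axis) of the 10 basement membrane genes on each array in the 8 groups (x axis), with untreated arrays in blue and NAC arrays in orange. Horizontal lines are group means and bars are 1 SD. The 2 arms are separated in Hspg2, Lama5, Lamc1 and Agrn, and mixed in Lama4, and the y axes start at different values.

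Agrin, encoded by Agrn, is a heparan sulfate proteoglycan that binds laminin and alpha-dystroglycan and clusters acetylcholine receptors at the neuromuscular junction. The untreated arrays read 9.42, 10.07 and 9.60 in Control, 9.61, 9.31 and 9.82 in HRas-KO, 9.51, 9.92 and 9.56 in NRas-KO. The 5 DKO arrays held 9.37, 9.48, 9.32, 9.74 and 9.61. With NAC the values were 8.96, 9.22, 8.91 and 9.07 in Control+NAC, 8.98, 9.27 and 8.88 in HRas-KO+NAC, 8.70, 8.90 and 9.17 in NRas-KO+NAC, and 8.57, 8.92, 9.03 and 8.88 in DKO+NAC. The arms did not overlap, though only 0.03 separated the lowest untreated from the highest NAC array. The difference of the means was -0.66 in Control, -0.54 in HRas-KO, -0.66 in DKO and -0.75 in NRas-KO.

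The 3 laminin alpha chains differed in how far the arms lay apart. Lama5 encodes the alpha 5 chain, found in the basement membranes of lung epithelium, endothelium and mesothelium. Its untreated values were 9.58, 10.28 and 9.72 in Control, 9.88, 9.41 and 10.05 in HRas-KO, 9.70, 10.01 and 9.64 in NRas-KO. The 5 DKO arrays held 9.56, 9.84, 9.63, 10.09 and 9.75. Its NAC values were 8.97, 9.07, 8.81 and 9.01 in Control+NAC, 8.90, 9.15 and 8.76 in HRas-KO+NAC, 8.47, 8.72 and 9.01 in NRas-KO+NAC, and 8.58, 8.98, 8.76 and 9.09 in DKO+NAC. Again all 14 NAC arrays were lower than all 14 untreated ones, here by at least 0.27. The mean differences were -0.89, -0.84, -1.05 and -0.92 in Control, HRas-KO, NRas-KO and DKO.

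Lama4 encodes the alpha 4 chain of endothelial and mesenchymal basement membranes, and its arms overlapped in every genotype. It ranged from 9.81 to 10.45 over the untreated arrays (median 10.21) and from 9.52 to 10.25 over the NAC arrays (median 10.04). Its mean differences were -0.04 in Control, 0.12 in HRas-KO, -0.25 in DKO and -0.31 in NRas-KO. The Control value was above 0, at 0.02 to 0.04, without Control array 2 or 3 or Control+NAC array 3. On the same arrays the log2 ratio of Lama5 to Lama4 was lower with NAC by 0.85 in Control, 0.96 in HRas-KO, 0.67 in DKO and 0.74 in NRas-KO, so these alpha chains differed unequally between the arms.

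Lama3 encodes the alpha 3 chain, part of the laminin that anchors epithelial cells through hemidesmosomes. With NAC its means were lower by 0.28 in Control, 0.20 in HRas-KO, 0.10 in DKO and 0.64 in NRas-KO, and the arms were free of overlap in NRas-KO alone. Single arrays decided the smaller of these values: the difference was -0.02 in HRas-KO without HRas-KO array 3, and in DKO it was 0.03 without DKO array 2, 0.01 without DKO array 4 and 0.01 without DKO+NAC array 1. Untreated values spread most in DKO, where the arrays read 8.77, 9.85, 8.93, 9.75 and 9.27, against 9.57, 9.94 and 9.81 in Control. DKO arrays 1 and 3 held the low values. The same arrays had summed alveolar type 2 marker levels (the mean deviation of 6 genes from their averages over all arrays) of -0.44 and -0.44, against -0.08, 0.02 and -0.14 in DKO arrays 2, 4 and 5; the part of this in the Lama3 values was not tested.

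The beta chains and the gamma chain differed by less than Lama5 in every genotype. Lamb2, which encodes the beta 2 chain of vascular and synaptic basement membranes, was 8.79 ± 0.16 in Control and 8.33 ± 0.10 in Control+NAC, a difference of -0.47. The other differences of Lamb2 were -0.50 in HRas-KO, -0.69 in DKO and -0.59 in NRas-KO. The arms were apart in 3 genotypes and overlapped in HRas-KO, where array 2 of HRas-KO+NAC read 8.77 against 8.19 and 8.16 on the other two. Lamb1, the widely expressed beta 1 chain, differed by -0.15, -0.29, -0.40 and -0.36 in Control, HRas-KO, NRas-KO and DKO, with overlap in Control and HRas-KO.

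Lamc1 encodes the gamma 1 chain that most laminin trimers contain. It read 10.82, 11.03 and 11.09 in Control, 11.01, 10.83 and 11.07 in HRas-KO, 10.84, 10.81 and 10.94 in NRas-KO. The 5 DKO arrays held 11.03, 11.05, 11.21, 10.96 and 11.05. In the NAC arm the values were 10.58, 10.67, 10.39 and 10.67 in Control+NAC, 10.48, 10.76 and 10.44 in HRas-KO+NAC, 10.19, 10.43 and 10.74 in NRas-KO+NAC, and 10.39, 10.39, 10.32 and 10.66 in DKO+NAC. All NAC arrays were below all untreated arrays by at least 0.05, and the mean differences were -0.40 in Control, -0.41 in HRas-KO, -0.62 in DKO and -0.41 in NRas-KO.

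Nid1, the nidogen that links laminin gamma 1 to type IV collagen, was 11.01 ± 0.15 in Control and 10.64 ± 0.06 in Control+NAC. Its differences were -0.37 in Control, -0.47 in HRas-KO, -0.67 in DKO and -0.53 in NRas-KO, and the groups did not overlap within any genotype. A second, dimmer Nid1 probe set had means of 10.07 in Control and 9.55 in Control+NAC, and of 9.91 in DKO and 9.33 in DKO+NAC, so in these genotypes the NAC mean was the lower in both rows. Nid2, the second nidogen, differed by -0.32 in Control, -0.28 in HRas-KO, -0.47 in DKO and -0.74 in NRas-KO and was free of overlap in 2 genotypes. The lowest Nid2 values were 7.46 on NRas-KO+NAC array 2 and 7.38 on DKO+NAC array 1, and both animals carried the code start T195. Without these low arrays the Nid2 difference was -0.49 in NRas-KO and -0.27 in DKO.

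**Figure D2:**
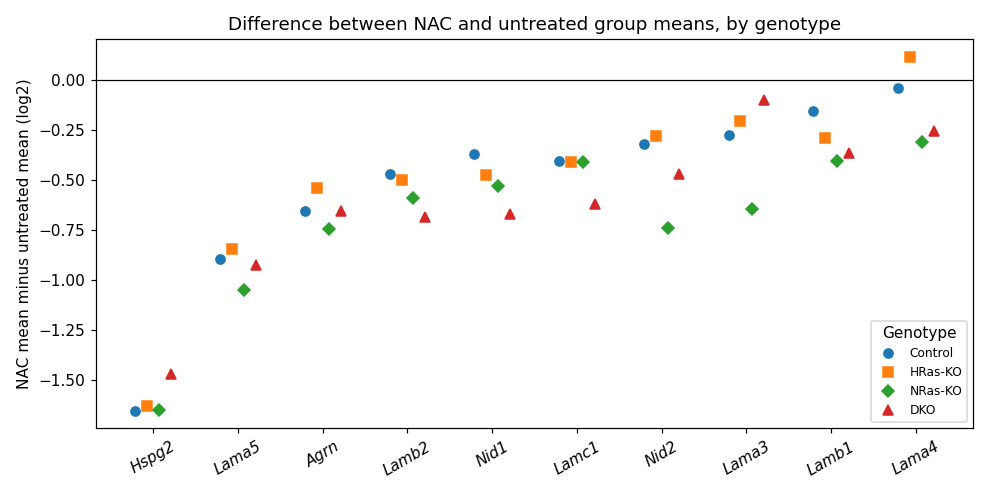
Difference between the NAC and untreated group means (y axis, log2) for each of the 10 genes (x axis, ordered by their average), with 1 point for each genotype. Hspg2 lies between -1.66 and -1.47, Lama5 between -1.05 and -0.84, and Lama4 between -0.31 and 0.12.

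Counted over the 10 genes, 7 were lower with NAC without overlap in Control, 5 in HRas-KO, 7 in DKO and 9 in NRas-KO. Over all 22180 genes the same held for 10.1% in Control, 14.9% in HRas-KO, 5.32% in DKO and 10.5% in NRas-KO. The HRas-KO count turned on single arrays: it was 8 without HRas-KO array 2 and 9 without HRas-KO+NAC array 2. No gene of the 10 was higher with NAC without overlap in any genotype, where 15.4%, 18.8%, 13.1% and 4.97% of all genes were in Control, HRas-KO, NRas-KO and DKO. Hspg2, Lama5, Lamc1, Nid1 and Agrn were lower without overlap in all 4 genotypes, as were 1.67% of all genes. In Hspg2, Lama5, Lamc1 and Agrn all 14 NAC arrays were below all 14 untreated arrays, as in 0.965% of all genes. The median difference of the 10 genes was -0.39 in Control, -0.44 in HRas-KO, -0.64 in DKO and -0.62 in NRas-KO, beside 0.02, 0.02, 0.02 and 0.03 in the same order over all genes. These counts describe genes picked for this contrast in Hspg2, and nothing is read from them against the background.

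Averaged over each arm, marker levels were also lower with NAC in every cell type list except that of neutrophils. The shifts were unequal, and the arms overlapped in all lists but that of pericytes. Over 6 pericyte markers, the mean deviation per array was 0.03 to 0.48 in untreated lungs and -0.33 to -0.01 with NAC, and 5, 4, 5 and 6 of the 6 genes had lower means in Control, HRas-KO, NRas-KO and DKO. For 8 fibroblast markers the range was -0.09 to 0.37 untreated and -0.31 to -0.004 with NAC, with 7, 8, 7 and 7 genes lower. The 6 smooth muscle markers ranged from -0.16 to 0.76 untreated and from -0.67 to 0.01 with NAC, with 6, 6, 5 and 6 genes lower. The 9 endothelial markers overlapped more, at -0.18 to 0.21 and -0.25 to 0.08, with 7, 6, 7 and 5 genes lower. Of 6 epithelial markers 3, 3, 3 and 6 were lower, and their ranges were -0.16 to 0.21 untreated and -0.19 to 0.03 with NAC. Alveolar type 1 markers ranged from -0.27 to 0.22 untreated and from -0.34 to 0.28 with NAC. Alveolar type 2 markers ranged from -0.44 to 0.31 and from -0.21 to 0.06, and their DKO mean was higher with NAC (-0.22 and -0.07). Neutrophil markers ranged from -0.54 to 0.80 and from -0.68 to 0.86, with means of -0.04 untreated and 0.04 with NAC. Markers of skeletal muscle, a neighbouring tissue, ran from -0.21 to 1.69 untreated and from -0.56 to -0.18 with NAC. The untreated and NAC means were 0.30 and -0.30 for heart muscle markers and 0.13 and -0.13 for erythroid markers. They were 0.12 and -0.12 for epidermal, 0.07 and -0.07 for mesothelial, and 0.05 and -0.05 for Schwann cell markers. The part of these shifts in the basement membrane differences was not tested.

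Promoter sequence is shown for the 3 genes with the largest average NAC differences, Hspg2, Lama5 and Agrn, and for Lamb2, the next in that order. RefSeq promoter windows of GRCm38.p6 were given for 6 of the 10 genes, and the 250 bases before the annotated start are printed 5′ to 3′ on the gene's strand. Capitals mark the GC box (GGGCGG on either strand, overlapping matches included), a motif that Sp1-family factors bind.
Hspg2: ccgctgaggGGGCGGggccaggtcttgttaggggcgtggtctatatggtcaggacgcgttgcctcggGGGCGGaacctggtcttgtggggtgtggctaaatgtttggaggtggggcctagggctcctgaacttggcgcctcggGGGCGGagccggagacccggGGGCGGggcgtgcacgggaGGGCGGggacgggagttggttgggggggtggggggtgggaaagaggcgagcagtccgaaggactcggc
Lama5: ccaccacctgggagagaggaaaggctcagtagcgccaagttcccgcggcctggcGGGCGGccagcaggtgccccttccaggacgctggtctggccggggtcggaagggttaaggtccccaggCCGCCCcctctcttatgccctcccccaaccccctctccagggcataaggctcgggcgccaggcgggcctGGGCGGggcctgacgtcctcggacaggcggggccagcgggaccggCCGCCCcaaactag
Agrn: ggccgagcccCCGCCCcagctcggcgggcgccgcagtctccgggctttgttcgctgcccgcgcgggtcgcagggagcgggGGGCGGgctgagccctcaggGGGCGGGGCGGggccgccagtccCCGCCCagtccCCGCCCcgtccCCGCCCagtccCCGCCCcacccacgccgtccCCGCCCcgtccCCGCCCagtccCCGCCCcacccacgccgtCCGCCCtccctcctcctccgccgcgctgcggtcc
Lamb2: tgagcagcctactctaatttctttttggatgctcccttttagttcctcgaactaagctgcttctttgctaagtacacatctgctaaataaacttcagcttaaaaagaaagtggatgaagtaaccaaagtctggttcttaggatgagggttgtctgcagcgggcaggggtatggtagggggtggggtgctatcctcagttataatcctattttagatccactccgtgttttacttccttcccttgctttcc
The windows are chr4:137468553-137468802 on the plus strand for Hspg2, chr2:180225860-180226109 on the minus strand for Lama5, chr4:156197489-156197738 on the minus strand for the upstream of the 2 Agrn starts, and chr9:108479612-108479861 on the plus strand for Lamb2. They lie directly upstream of the transcript start.

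The Hspg2 window held 5 GC boxes, the Lama5 window 4 and the upstream Agrn window 12, and their GC contents were 70.0%, 72.4% and 83.6%. The window of the other Agrn start, chr4:156186260-156186509 on the minus strand, held 2 at 60.8% GC. The Lamb2 window held none and was 43.6% GC. The Lamb1 window had 2 GC boxes at 62.0% GC and the Nid1 window 1 at 64.4%. Among 32851 RefSeq windows of the same length, 32.7% held at least 1 GC box and the median GC content was 52.4%. None of the windows of these 6 genes held an AP-1 site (TGACTCA, 4.46% of all windows, either strand), an antioxidant response core (TGACNNNGC, 10.2%, either strand) or a TATA box (TATAAA on the gene's strand, 7.59%). A match only says that the letters are present.

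No genotype difference among the 10 genes was called in either arm. In untreated lungs, DKO and Control were compared with limma over all 22180 genes, and 0 of the 10 genes passed an adjusted p of 0.05, where 3.83% of all genes did. At an unadjusted p under 0.05 there was 1 of the 10, Lama3. It was 9.31 ± 0.48 (n = 5) in DKO and 9.77 ± 0.19 (n = 3) in Control, a difference of -0.46 (95% interval -0.88 to -0.04, limma adjusted p = 0.253). Without DKO arrays 1 and 3 the Lama3 difference was -0.15 (limma adjusted p = 0.815); they held the 2 lowest Lama3 values of the group, so leaving them out had to bring the means closer.

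Hspg2 was 9.63 ± 0.27 in DKO and 9.95 ± 0.31 in Control, which gave -0.32 with an interval of -0.67 to 0.04 (limma adjusted p = 0.394). Without Control array 2, the highest of its group, the Hspg2 difference was -0.14 (limma adjusted p = 0.871). Against HRas-KO, at 9.99 ± 0.29, the Hspg2 difference of DKO was -0.36 (-0.71 to -0.01, adjusted p = 0.263). Intervals of the other 8 genes in DKO against Control all held 0, and the widest, of Nid2, ran from -0.60 to 0.19.

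None of the 10 genes was called in the other untreated comparisons. DKO against HRas-KO called 5.63% of all genes, with 1 of the 10 at an unadjusted p under 0.05 (Hspg2, above), and DKO against NRas-KO called 4.95%, again with 1 of the 10, Lama3 at -0.49 (limma adjusted p = 0.186). HRas-KO and NRas-KO against Control called 0% of all genes, with 190 and 231 genes at an unadjusted p under 0.05 and 0 of the 10 among them. The Hspg2 differences there were 0.04 (-0.35 to 0.44) in HRas-KO and -0.21 (-0.60 to 0.19) in NRas-KO. Within the code start H058 the NRas-KO difference of Hspg2 was -0.33 from 2 arrays on each side, and within C118 it was 0.03 from 1 array on each side. For HRas-KO it was 0.15 in H058 and -0.10 in C118.

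**Figure D3:**
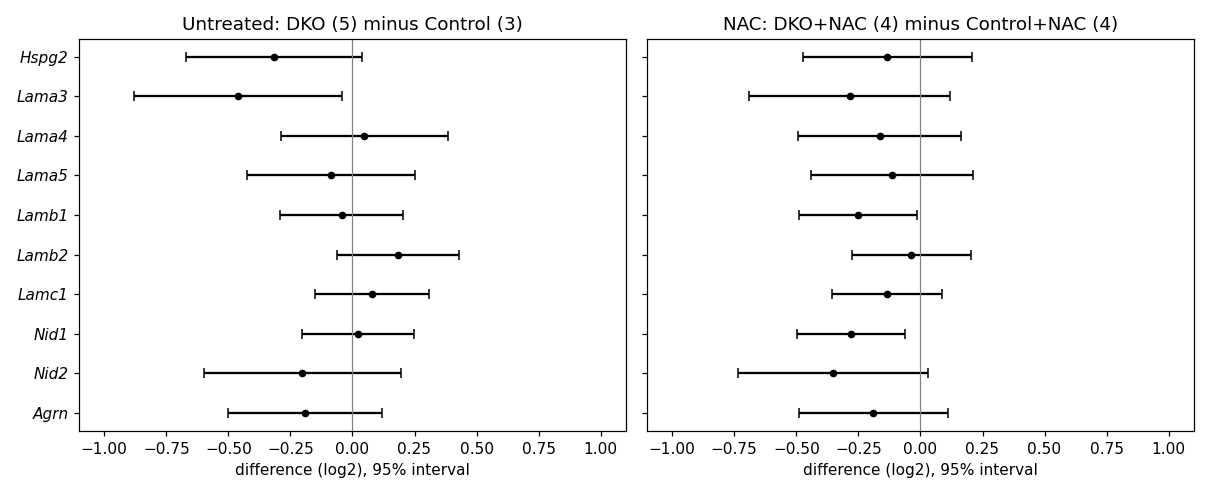
Difference between DKO and Control (x axis, log2) for the 10 genes (y axis) in untreated lungs (left) and with NAC (right). Points are limma estimates and bars their 95% intervals, unadjusted for the number of genes. All 10 estimates with NAC are below 0 but come from the same arrays, and none of the 20 differences passed the adjusted threshold.

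In the NAC arm no genotype comparison called a gene, 0% of 22180, although 2116 genes in DKO+NAC against Control+NAC had an unadjusted p under 0.05. The 10 genes had 2 of these, Nid1 and Lamb1. Nid1 read 10.36, 10.36, 10.42 and 10.32 in DKO+NAC and 10.65, 10.57, 10.65 and 10.70 in Control+NAC. These groups did not overlap, and the difference was -0.28 (-0.50 to -0.06, limma adjusted p = 0.393). Within code start T445 the Nid1 difference was -0.20, from 1 DKO+NAC and 3 Control+NAC arrays, and within T453 it was -0.39 from 1 array on each side. Lamb1 differed by -0.25 (-0.49 to -0.01, limma adjusted p = 0.49). On the same arrays of T445 and T453 the Lamb1 difference was -0.25 and -0.17. Without the array labelled DKO+NAC 4, whose Nras value stood apart, 0 of the 10 were called as well.

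All 10 estimates were below 0 in DKO+NAC against Control+NAC, with a median of -0.18 beside 0.01 over all genes. All 10 were also below 0 in NRas-KO+NAC against Control+NAC, with a median of -0.19 beside -0.004, and these comparisons share their control arrays. The 10 genes were read on the same arrays and varied together. Their deviations from group means correlated with those of Hspg2 at 0.25 to 0.84. A shared sign is therefore not 10 separate observations. The lowest values of Lama3, Lama4, Lamb1 and Nid2 in both mutant groups came from the T195 animals. Without both T195 arrays the NRas-KO+NAC difference of Nid2 went from -0.37 to -0.12, and that of Lama4 from -0.18 to 0.004, a shift that leaving out the lowest array of the group had to give in that direction. HRas-KO+NAC against Control+NAC had 5 estimates on each side of 0, and its Hspg2 difference was 0.07 (-0.30 to 0.44). DKO+NAC against HRas-KO+NAC had 10 below 0, with Nid1 at -0.27 (adjusted p = 0.726), and here the groups also differed in Xist as given above. DKO+NAC against NRas-KO+NAC had 6 estimates above and 4 below 0. At an unadjusted p under 0.05 these comparisons held 0 of the 10 in HRas-KO+NAC and in NRas-KO+NAC against Control+NAC, 1 in DKO+NAC against HRas-KO+NAC and 0 in DKO+NAC against NRas-KO+NAC.

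Whether the DKO difference changed with NAC was tested as a difference of differences, which called 0.388% of all genes and 0 of the 10, none of them at an unadjusted p under 0.05. The Hspg2 change was 0.18 (-0.31 to 0.68, limma adjusted p = 0.801). The smallest p of the 10 belonged to Nid1, with a change of -0.30 (-0.61 to 0.01, adjusted p = 0.407).

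Part of the spread within groups moved with the code start. Lama4 was 9.81 to 9.87 on the 3 untreated arrays of code start C118 and 10.26 to 10.38 on the 5 of H058, with a Control, an HRas-KO and an NRas-KO array or more on each side. Lama3 was 9.36 to 9.65 in C118 and 9.81 to 9.97 in H058. Agrn did not overlap either, at 9.31 to 9.51 in C118 and 9.56 to 10.07 in H058. The others of the 10 genes overlapped between these code starts, at 9.66 to 9.79 against 9.63 to 10.31 for Hspg2. In the NAC arm the T195 arrays read 8.82 and 8.88 for Lama3 and 9.52 and 9.58 for Lama4, below all other NAC arrays, while their Hspg2 values of 8.08 and 8.03 were within the range of the others.

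Other genes of the basement membrane and its receptors were taken from lists written by role, with 75 genes analysed here. The lists were chosen with earlier results of these data known, so nothing is read from their shares against all genes. In untreated DKO against Control 3 rose and 2 fell, 6.67% of the 75 beside 3.83% of all genes. Glce, the C5-epimerase that converts glucuronic to iduronic acid in heparan sulfate, rose from 7.22 ± 0.19 in Control to 8.22 ± 0.29 in DKO, a difference of 0.99 (limma adjusted p = 0.000231). When all Glce probe sets were averaged the difference was 0.50, still past the threshold. The probe sets thus did not agree in size, and the others differed on average by less than the brightest. It was the 1 called gene among 16 heparan sulfate enzymes.

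Npnt (nephronectin, a ligand of integrin alpha 8 beta 1) rose by 0.56 from 11.03 ± 0.16 to 11.59 ± 0.17 (limma adjusted p = 0.0034). Smoc2, a calcium-binding matrix protein related to SPARC, rose by 0.65 from 7.13 ± 0.28 to 7.78 ± 0.49 (adjusted p = 0.039), but by 0.33 (adjusted p = 0.221) without DKO arrays 1 and 3. These were 2 of 19 other basement membrane proteins. Among 9 matrix proteases, Bmp1, which processes laminin and collagen precursors, was lower by 0.49 (9.29 ± 0.12 in Control and 8.79 ± 0.14 in DKO, adjusted p = 0.0133). Mmp14, a membrane-bound collagenase, was lower by 0.45 (10.02 ± 0.14 and 9.57 ± 0.21, adjusted p = 0.0316). The Mmp14 call was lost without any one of the 3 Control arrays, and that of Bmp1 without Control array 2 (adjusted p = 0.0984).

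No type IV collagen chain, other laminin chain, matrix receptor or dystroglycan enzyme passed in DKO against Control. The smallest p among the receptors, dystroglycan enzymes, collagen chains and laminin chains belonged in turn to Bcam, the Lutheran glycoprotein that binds laminin alpha 5, at -0.41 (limma adjusted p = 0.0563), B4gat1 at 0.37 (0.129), Col4a5 at -0.25 (0.272) and Lamc3 at 0.19 (0.488). The mean deviation of 3 measured erythroid markers was 0.23 to 1.06 in DKO and -0.39 to 0.15 in Control. That of 6 alveolar type 2 markers was -0.44 to 0.02 and 0.02 to 0.23. Endothelial markers did not overlap, at -0.18 to 0.04 in DKO and 0.09 to 0.18 in Control. Neutrophil markers overlapped, at -0.54 to -0.13 and -0.25 to 0.61. The part of these marker differences in the calls was not tested.

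Against HRas-KO, 13 of the 75 were called in DKO (17.3% beside 5.63% of all genes), and against NRas-KO 9 were (12.0% beside 4.95%). Both comparisons share the DKO arrays with the one above, and the limit on the lists holds here too. Both counts were lower when only the compared groups were fitted, as given in the last section. Glce, Npnt and Smoc2 rose and Bmp1 and Mmp14 fell in both comparisons. Lamc3, the laminin gamma 3 chain, rose by 0.41 against HRas-KO (limma adjusted p = 0.0348) and by 0.39 against NRas-KO (adjusted p = 0.047). Bcam was lower by 0.54 in both (adjusted p = 0.00889 and 0.00932). Ddr1, a collagen receptor kinase, was lower by 0.46 and 0.55 (adjusted p = 0.0309 and 0.0105), and Pomk, which phosphorylates the mannose of dystroglycan, by 0.40 and 0.48 (0.0476 and 0.0191). Col18a1, Sparc and B3gat3 fell and Adamts1 rose against HRas-KO. HRas-KO and NRas-KO against Control and all NAC-arm comparisons called 0 of the 75, beside 0% of all genes. The change of the DKO difference called 0 of the 75, beside 0.388% of all genes. For Glce the change was -0.77 (limma adjusted p = 0.0711). Its DKO+NAC and Control+NAC means were 7.97 ± 0.07 and 7.74 ± 0.12.

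Between the arms, the roles differed in size and sign, again as a description. Each gene's NAC difference was averaged over the 4 genotypes. The median was -0.48 for the 10 genes, -0.45 for 6 type IV collagen chains, -0.27 for 4 other laminin chains, -0.26 for 19 other basement membrane proteins and -0.23 for 9 proteases. It was -0.12 for 16 heparan sulfate enzymes, -0.05 for 6 dystroglycan enzymes and 0.06 for 15 receptors. The genes named next were singled out after their values were seen.

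Col4a1 and Col4a2, which form the most widespread type IV collagen trimer and are transcribed from a shared promoter, averaged -0.88 and -0.95 and were lower without overlap in all 4 genotypes. Col4a5 and Col4a6 averaged -0.05 and -0.04. In Control the Col4a2 means were 10.10 ± 0.15 untreated and 9.13 ± 0.16 with NAC. Among receptors, Itga3 (-0.58) and Itgb4 (-0.53), which encode chains of laminin-binding integrins, and Lrp4 (-0.55), the agrin co-receptor, were lower without overlap in all genotypes. Itgb1, the beta 1 integrin chain shared by many matrix receptors, averaged 0.41 and was higher in every genotype, with overlap in DKO. Among heparan sulfate enzymes Ndst2, an N-deacetylase, averaged -0.50 and Hs2st1, a 2-O-sulfotransferase, 0.45, each without overlap in all 4 genotypes, where 1.67% of all genes were lower and 1.53% higher.

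**Figure D4:**
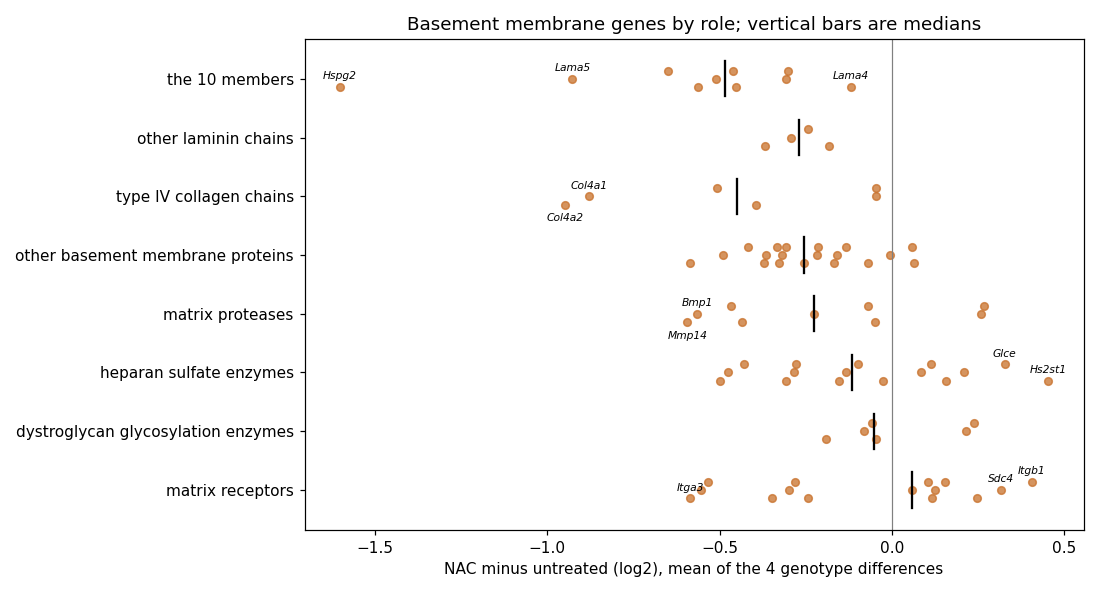
NAC minus untreated difference averaged over the 4 genotypes (x axis, log2) for basement membrane genes grouped by role (y axis), 1 point per gene, with a vertical bar at each group's median. Hspg2 at -1.60 lies apart from the rest, Col4a2 and Lama5 follow at -0.95 and -0.93, and the receptors lie on both sides of 0.

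The genes whose values over the 28 arrays were most like those of Hspg2 were Lrp1 (Pearson r = 0.990), Kmt2d (0.977), Srrm2 (0.976), Col4a2 (0.976) and Col5a1 (0.973). These points share the difference between the arms. With each group's mean removed, the closest were Lrp1 (0.916), Mink1 (0.880), Zmiz2 (0.861), Ltbp4 (0.860) and Itpr3 (0.842). Of the 10 genes, Lama5 was closest to Hspg2 by both measures (0.964 and 0.841, in place 15 and 6 among all genes), followed by Agrn (0.933 and 0.831). Lama4 was farthest, at 0.321 and 0.249. These correlations are descriptions over arrays that share code starts and array-wide normalization.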

How the data were processed

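The authors deposited 1 log2 value per probe set and array (41345 probe sets, 28 arrays), made with RMA (background correction, quantile normalization and probe summary) and affy per the submitters' processing notes; versions, and whether all arrays were normalized together, are not given in the sources used here. Array medians were 5.25 to 5.41, and the number of arrays limits the precision. Probe sets with 1 symbol in the platform annotation numbered 23521, and the brightest per symbol left 22180 genes.

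limma 3.58.1 in R 4.3.3 (lmFit, eBayes) fitted 8 group means to all arrays, with 20 residual and 5.95 prior degrees of freedom. Genotypes were compared within each arm, and p-values were adjusted by Benjamini-Hochberg over all genes, with calls made under 0.05; printed adjusted p-values come from limma. The fit was tested on simulated data. Differences between NAC and untreated groups were not tested.

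The 10 genes, role lists and marker lists were chosen with earlier results of these data known. The 10 genes were always named. From the other role lists, called genes were named (at most 4 a list, by smallest p), or up to 2 with the smallest p where none was called, and the 5 genes most like Hspg2 by each measure. Col18a1, Sparc, B3gat3 and Adamts1 fall under the same rule. Genes in the comparison of arms by role were named after their values were seen. Each RNA sample came from 1 animal. Alternatives covered probe set averaging, normalization, a filter on dim genes, moderation, the arrays fitted, replicate and code start blocks, and leaving out each array. Hras was not analysed here.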

Additional observations from a re-analysis of the deposited data

Results flagged for a closer look

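Nid1 in DKO array 3 was 10.63, apart from the other DKO arrays at 11.06 to 11.20; the gap to the nearest was 0.749 of the group's range. Of 30 groups of 4 or more arrays examined over the 10 genes this was the 1 set apart, and chance sets apart about 1 in 20.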

How the results depend on the processing

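Under 39 alternative settings, all 1880 refitted genotype differences of the 10 genes stayed past or short of the threshold as before, so none was called in any. These include HRas-KO and NRas-KO against Control and all NAC-arm comparisons. There the main fit called 0% of all genes, so the count is a weak check of stability. Of 420 NAC differences, 417 moved by less than 1 SD; the exceptions were Lamb2 in HRas-KO (-0.70 without HRas-KO+NAC replicate 2) and Lamb1 (-0.58) and Nid2 (-1.04) in NRas-KO without NRas-KO+NAC replicate 3. Leaving out 1 array gave Hspg2 differences with NAC of -1.83 to -1.37 and 5 to 9 genes lower without overlap in HRas-KO. The number of other basement membrane genes called was less stable, and the cause was not tested. Fitted on only the compared groups, which leaves fewer arrays, it was 1 in DKO against Control, 3 against HRas-KO and 4 against NRas-KO, instead of 5, 13 and 9. Against HRas-KO it was 8 with code start as a random block and 8 without DKO replicates 1 and 3, which was chosen after seeing the data. Array median centring gave 1 instead of 0 for the change of the DKO difference with NAC. Leaving out 1 array gave 3 to 8 in DKO against Control (3 without Control replicate 1 or 2, 8 without DKO replicate 4), 6 to 13 against HRas-KO (6 or 7 without an HRas-KO replicate), 5 to 14 against NRas-KO (5 without NRas-KO replicate 1 or 3, 14 without DKO replicate 2 or 4) and 0 to 1 for the change (1 without DKO replicate 2 or 4). Replicate numbers did not pair the arrays: 13 of 37 same-numbered pairs correlated over 0.1 (mean 0.021), as did 15 of 28 pairs of different groups that shared a code start (mean 0.146). With a replicate block the counts were 4, 9 and 6 in these 3 comparisons and 0 for the 10 genes.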
